A study of Mus musculus with 4 samples.

Results

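Activated B cells secrete cytokines as well as antibody, and 6 genes for such cytokines were examined here: Il6, Il10, Tnf, Lta, Ltb and Ebi3. They were taken as every non-control array probe whose RefSeq transcript accession belongs to a listed symbol, which gave 1 probe for each of the 6 genes, out of 39429 probes for 32585 genes or unnamed transcripts on the array. The series compared B cells lacking Aff3, the gene of a nuclear factor linked to transcription elongation, with B cells keeping 1 intact copy. There were 2 arrays of Aff3-/- cells and 2 of Aff3+/- cells, all from mouse spleen. The cells of both groups were CD43-negative, a selection that keeps resting B-2 cells, and were cultured alike for 3 days with LPS, at 10 ug/mL, together with the cytokine IL-4, at 10 ng/mL. No wild-type (Aff3+/+), unstimulated or freshly isolated cells were among the arrays used here, so every value describes the stimulated state with at least 1 disrupted allele. The labels give neither the age of the mice nor whether the arrays of a genotype came from separate mice, and the p-values therefore reflect sample-to-sample spread that may be technical. Whether Aff3 transcript was lower in Aff3-/- cells was not analysed here, since none of its 7 transcript accessions matched a probe, and the genotypes rest on the labels.

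LPS binds TLR4 and activates NF-kB and MAP kinase signalling, which switch on cytokine genes, while IL-4 acts through STAT6. IL-6 promotes plasma cell and T follicular helper cell formation, and IL-10 made by B cells and plasmablasts restrains inflammation. TNF, lymphotoxin alpha and lymphotoxin beta form a small family: TNF and lymphotoxin alpha act as trimers on the TNF receptors, and lymphotoxin beta anchors lymphotoxin alpha at the cell surface, where the heterotrimer signals to stromal cells through the lymphotoxin beta receptor and keeps B cell follicles in shape. EBI3 is a secreted chain that pairs with the IL-27 p28 chain to make IL-27 or with the IL-12 p35 chain to make IL-35.

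The Ltb, Tnf and Lta genes stand next to each other in that order on chromosome 17, between Lst1 and Nfkbil1. Ebi3 lies elsewhere on chromosome 17, Il6 on chromosome 5 and Il10 on chromosome 1. The promoter windows below show what lies ahead of Il6, the member that differed most between the genotypes, and ahead of the neighbours Ltb and Tnf, which behaved unlike each other across the arrays. Each runs from 250 bases before to 50 bases after the annotated start in RefSeq's GRCm38.p6 annotation. Such windows were available for 5 of the 6 members (all but Il10). Il6 lies at chr5:30012864-30013163 on the plus strand, Ltb at chr17:35194257-35194556 on the plus strand and Tnf at chr17:35201958-35202257 on the minus strand. Capitals mark matches on either strand to short motifs, with N for any base. These are GGGNNTTTCC, a form of the NF-kB site, TTGNGNAA, a form of the C/EBP site, and TGANTCA, a form of the AP-1 site. No 2 of the matches overlap.
Il6 promoter: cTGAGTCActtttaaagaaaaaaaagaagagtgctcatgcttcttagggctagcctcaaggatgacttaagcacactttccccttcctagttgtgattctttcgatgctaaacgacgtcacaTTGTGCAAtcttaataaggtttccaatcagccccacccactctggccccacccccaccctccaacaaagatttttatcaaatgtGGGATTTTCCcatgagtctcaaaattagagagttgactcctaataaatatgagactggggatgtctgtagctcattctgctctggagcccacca
Ltb promoter: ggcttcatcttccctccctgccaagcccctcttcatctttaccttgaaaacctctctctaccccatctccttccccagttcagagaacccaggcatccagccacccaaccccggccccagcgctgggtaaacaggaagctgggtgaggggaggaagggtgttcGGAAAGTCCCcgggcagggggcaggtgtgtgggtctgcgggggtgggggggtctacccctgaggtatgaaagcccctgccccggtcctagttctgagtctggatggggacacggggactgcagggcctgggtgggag
Tnf promoter: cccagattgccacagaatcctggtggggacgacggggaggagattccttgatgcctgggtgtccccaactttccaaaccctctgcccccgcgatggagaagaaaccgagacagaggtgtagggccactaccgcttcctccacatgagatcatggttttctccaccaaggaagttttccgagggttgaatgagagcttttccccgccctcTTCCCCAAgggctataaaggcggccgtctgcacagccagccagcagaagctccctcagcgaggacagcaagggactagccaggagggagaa

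The Il6 window held 1 match to each of the 3 motifs, with the NF-kB match starting 44 bases, the C/EBP match 128 bases and the AP-1 match 249 bases before the start. The Ltb window held 1 NF-kB match, 87 bases before the start, on the strand opposite to the gene. The Tnf window held 1 C/EBP match, 41 bases before the start and also on the opposite strand, and the Lta and Ebi3 windows held none of the 3. Among 32851 promoter windows of the same length, 1.63% held the NF-kB motif, 13.3% the C/EBP motif and 7.81% the AP-1 motif. These matches describe letters only, and no binding was measured.

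All 6 transcripts were detected. Every spot of every member was well above background on all 4 arrays and none was saturated. The scanner software marked 24946 to 25868 of the 39429 probes per array as well above background, the detection limit used below. B cell markers were present throughout, each of the 8 listed being above that limit on all 4 arrays. Values from here on are log2 signals relative to the array's 75th percentile, or differences between them, unless named as intensities or sums. The 8 B cell markers, 1 higher and 7 lower in Aff3-/- cells (median difference -0.14, or -0.32 to +0.05 with 1 array left out), summed to 218 to 266 times the array's 75th percentile in Aff3-/- cells and 232 to 256 times in Aff3+/- cells. The smallest p among them belonged to the inhibitory receptor gene Cd22 (-0.25 ± 0.17, SE) and the B lineage factor Pax5 (-0.22 ± 0.17), while the B cell receptor chain Cd79a was at -0.15 ± 0.24 and Ms4a1, which encodes CD20, at -0.04 ± 0.14. Of 13 myeloid markers with a probe, 7 were below the detection limit on every array, among them Lyz2, S100a8, S100a9 and Fcgr1. The monocyte gene Cd14 stood at -6.03 and -6.40 in Aff3-/- cells and -7.01 and -5.94 in Aff3+/- cells, and Adgre1, a macrophage surface antigen, at -3.79 and -4.36 in Aff3-/- cells and -3.48 and -4.15 in Aff3+/- cells. The myeloid list summed to 96.6 to 102 in Aff3-/- cells and 101 to 112 in Aff3+/- cells, most of it from Siglech (-0.11 ± 0.12) and Flt3. Csf1r, the M-CSF receptor gene, was at -0.24 ± 0.24, though another of its probes was at +0.09. The T and NK cell list summed to 12.3 to 14.1 in Aff3-/- cells and 14.0 to 16.0 in Aff3+/- cells. Of its 14 genes, 4 (Cd3g, Ncr1, Klrb1c and Gzmb) were below the limit on every array. Lck, Cd2, Cd4 and Nkg7 were above the array's 75th percentile on every array. Lck was the brightest of them, at 2.72 and 2.64 in Aff3-/- cells and 2.85 and 2.71 in Aff3+/- cells. Zap70, a T cell kinase, was lower without overlap (-0.32 ± 0.13), and the T cell receptor chain Cd3e was at -0.11 ± 0.15. Mast cell, basophil and stromal markers summed to 0.416 to 0.597 in Aff3-/- cells and 0.452 to 0.650 in Aff3+/- cells. Cpa3, Fcer1a, Mcpt8 and Col1a1 were below the limit on every array. Of the 6 tested, 2 were higher and 4 lower in Aff3-/- cells (median -0.26, or -0.50 to +0.06 with 1 array left out). The smooth muscle actin gene Acta2 (-0.36 ± 0.12) and the endothelial cadherin gene Cdh5 (-0.61 ± 0.25) were lower without overlap. The 2 higher genes were Kit (+0.16 ± 0.66) and Col1a2 (+0.09 ± 0.12). Over all features, 11.1% were lower without overlap. Cd8a was at -6.05 and -5.42 in Aff3-/- cells and -7.30 and -6.19 in Aff3+/- cells, where 1 of the 2 arrays was above the limit, so that its difference is not exact and it entered the fit through the Aff3-/- arrays alone. None of these markers passed the adjusted threshold. The part of such cells in the cytokine values was not tested beyond these levels. In such bulk samples, fewer cells making a transcript and less transcript per cell cannot be told apart.

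Il6 was brighter in Aff3-/- cells, and it was the one member of the 6 whose genotypes did not overlap. Its processed intensity was 6450 and 5904 on the Aff3-/- arrays, against 4042 and 4971 on the Aff3+/- arrays. On the log2 scale these are 2.29 and 2.20 in Aff3-/- cells and 1.67 and 1.88 in Aff3+/- cells, with means of 2.24 ± 0.07 in Aff3-/- cells and 1.77 ± 0.15 in Aff3+/- cells (SD, n = 2 each). Both Aff3-/- arrays lay above both Aff3+/- arrays, and the array-to-array differences between the genotypes ran from +0.32 to +0.63. The difference of +0.47 ± 0.13 (SE, 95% interval 0.12 to 0.83), a 1.39-fold higher signal, had an unadjusted p of 0.019 in the limma fit and did not pass Benjamini-Hochberg adjustment over all 20649 tested features (adjusted p = 1.00). With 1 array left out, where the lone array is assumed to vary like the other genotype, the unadjusted limma p was 0.070 or 0.037 for Aff3-/- replicate 1 or 2 and 0.16 or 0.041 for Aff3+/- replicate 1 or 2.

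Il10 was dim on every array. Its probe is printed 10 times per array, and the mean intensity of the spots was 155 and 178 in Aff3-/- cells, against 174 and 208 in Aff3+/- cells. The log2 values were -3.08 and -2.86 in Aff3-/- cells and -2.87 and -2.70 in Aff3+/- cells. The brighter Aff3-/- array thus lay 0.016 above the dimmer Aff3+/- array, and the genotypes overlapped. The 10 spots of an array had an SD of 0.04 to 0.07, which covers the spread within an array only. Between the arrays of a genotype the SD was 0.16 in Aff3-/- cells and 0.12 in Aff3+/- cells (n = 2 each). The difference was -0.18 ± 0.14 (SE, 95% interval -0.56 to 0.20, adjusted p = 1.00 in the limma fit). With normexp background correction the 2 genotypes no longer overlapped, at a difference of -0.13, as held for 21.7% of all features in either direction. In the authors' deposited values the genotypes overlapped.

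**Figure D1:**
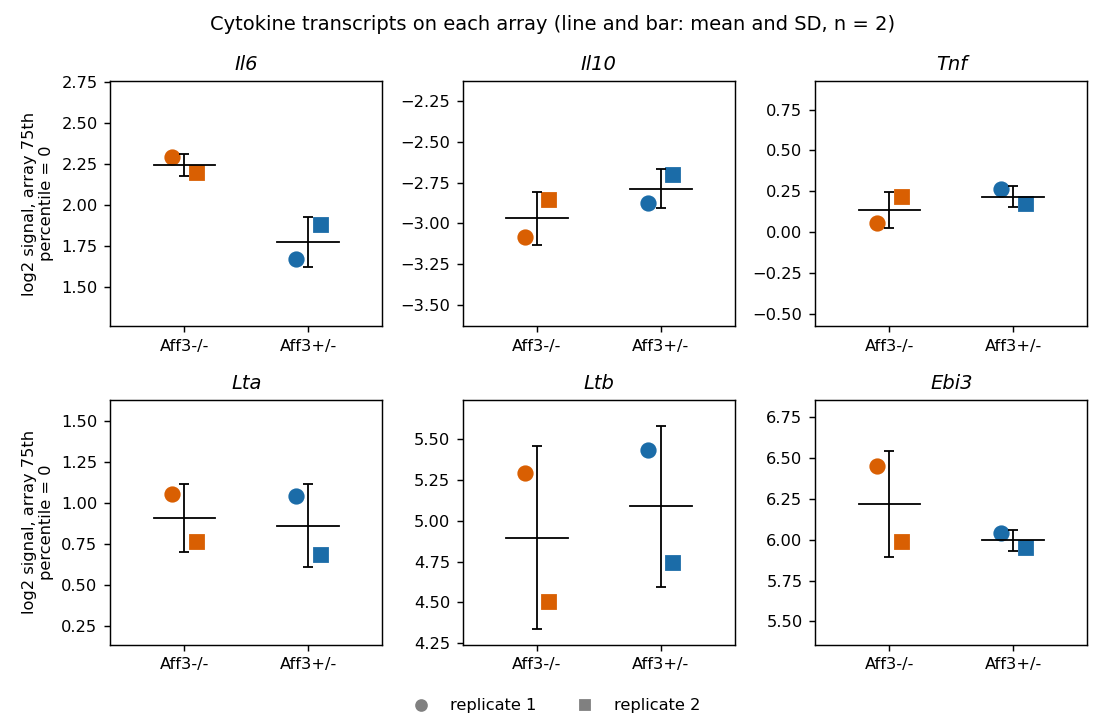
Log2 signal of each cytokine transcript relative to the array's 75th percentile (vertical axis, 1.5 log2 units in every panel) on the 2 Aff3-/- arrays (orange, left) and the 2 Aff3+/- arrays (blue, right); circles are replicate 1, squares replicate 2, and the line and bar are the mean and SD. The genotypes stand apart for Il6, where the Aff3-/- arrays lie at 2.29 and 2.20, while for Ltb and Lta the replicates of each genotype lie further apart than the genotypes.

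Tnf, which encodes the soluble and membrane-bound inflammatory cytokine, was close to the array's 75th percentile in all samples. Its 10 spots averaged 1368 and 1491 intensity units in Aff3-/- cells, against 1526 and 1521 in Aff3+/- cells. The log2 values were 0.05 and 0.21 in Aff3-/- cells and 0.26 and 0.17 in Aff3+/- cells. Aff3-/- replicate 1 was lowest and Aff3+/- replicate 1 highest, with the other arrays between them. The difference was -0.08 ± 0.12 (SE, 95% interval -0.41 to 0.25, adjusted p = 1.00 in the limma fit). Its size rested on single arrays, at -0.0045 with Aff3-/- replicate 1 left out and -0.16 with Aff3-/- replicate 2 left out.

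Lta encodes lymphotoxin alpha. Its 10 spots averaged 2734 and 2180 intensity units in Aff3-/- cells, against 2622 and 2167 in Aff3+/- cells. The log2 values were 1.05 and 0.76 in Aff3-/- cells and 1.04 and 0.68 in Aff3+/- cells, so that replicate 1 of either genotype was brighter than replicate 2 of either genotype. The 10 spots of an array had an SD of 0.04 to 0.07, which covers the spread within an array and not that between samples. The genotype difference was +0.04 ± 0.19 (SE, 95% interval -0.45 to 0.54, adjusted p = 1.00 in the limma fit), and its sign depended on single arrays: leaving out Aff3-/- replicate 1 gave -0.10, and leaving out Aff3+/- replicate 2 gave -0.135.

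**Figure D2:**
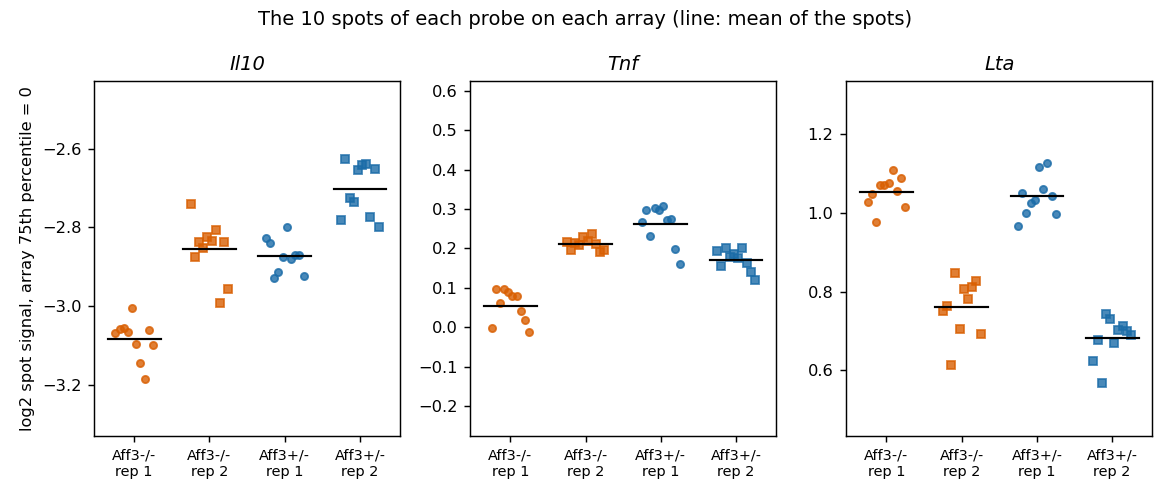
Log2 signal of each of the 10 spots of the Il10, Tnf and Lta probes (vertical axis, relative to the array's 75th percentile) on each of the 4 arrays, Aff3-/- in orange and Aff3+/- in blue; the line is the mean of the spots. Spots of 1 array had an SD of 0.01 to 0.07, and the Lta spots separate replicate 1 from replicate 2 in both genotypes.

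Ltb, the membrane anchor of the lymphotoxin heterotrimer, showed the same arrangement with wider gaps. Its intensity was 51630 and 29152 on the Aff3-/- arrays, against 55145 and 36131 on the Aff3+/- arrays. On the log2 scale it stood at 5.29 and 4.50 in Aff3-/- cells and at 5.44 and 4.74 in Aff3+/- cells. Replicate 1 was 1.73-fold brighter than replicate 2 in Aff3-/- cells and 1.62-fold brighter in Aff3+/- cells. The difference between the genotypes was -0.19 ± 0.36 (SE) with a 95% interval of -1.15 to 0.77 (adjusted p = 1.00 in the limma fit). It turned to +0.20 without Aff3-/- replicate 2 and to +0.16 without Aff3+/- replicate 1, and it was -0.59 without Aff3-/- replicate 1.

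The genes around this cluster were set beside it. Lst1, a leukocyte membrane protein gene on the far side of Ltb, had log2 values of 2.47 and 1.65 in Aff3-/- cells and 2.59 and 2.04 in Aff3+/- cells. Nfkbil1, on the far side of Lta, stood at 2.53 and 2.01 in Aff3-/- cells and 2.52 and 2.14 in Aff3+/- cells. Both had replicate 1 as the brighter array in each genotype, as Ltb and Lta did. They were among the 5 of 8 tested neighbours with this order. In the other 3 (Ddx39b, Bag6 and Csnk2b) replicate 2 was brighter in each genotype. Same-numbered arrays also deviated together across all features (r = 0.56), and the share of all features with this order was not counted. Tnf, which lies between Ltb and Lta, was brighter on replicate 2 in Aff3-/- cells and on replicate 1 in Aff3+/- cells. Of the 8 neighbours, 3 were higher and 5 lower in Aff3-/- cells, with a median difference of -0.05. Aif1, which encodes a calcium-binding protein of macrophages, was lower without overlap (-0.21 ± 0.12, SE), as were 11.1% of all features. Lst1 was at -0.25 ± 0.34, and neither gene passed the adjusted threshold.

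Ebi3 was brighter on 1 Aff3-/- array than on the other arrays. Its intensity was 115182 and 81776 in Aff3-/- cells, against 83970 and 83595 in Aff3+/- cells. The log2 values were 6.45 and 5.99 in Aff3-/- cells and 6.04 and 5.95 in Aff3+/- cells, so that Aff3-/- replicate 2 lay between the Aff3+/- arrays. The difference was +0.22 ± 0.19 (SE, 95% interval -0.28 to 0.72, adjusted p = 1.00 in the limma fit). It rested on Aff3-/- replicate 1, since without that array it was -0.0082, and without Aff3-/- replicate 2 it was +0.45.

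Over the 6 members, 3 were higher and 3 lower in Aff3-/- cells, with a median difference of -0.02, against a median of -0.01 over all tested features. The limma fit called 0 members past an adjusted p of 0.05, and it called 0 (0%) of the 20649 features. An unadjusted p under 0.05 was reached by 1 member, Il6, and by 2.04% of all features. Both Aff3-/- arrays lay above both Aff3+/- arrays for 1 member, again Il6, and for 8.44% of all features; the opposite held for 0 members and for 11.1% of all features. In size the Il6 difference was larger than that of 96.8% of the features, and the shares were 86.6% for Ebi3, 83.4% for Ltb, 82.1% for Il10, 56.3% for Tnf and 34.6% for Lta.

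**Figure D3:**
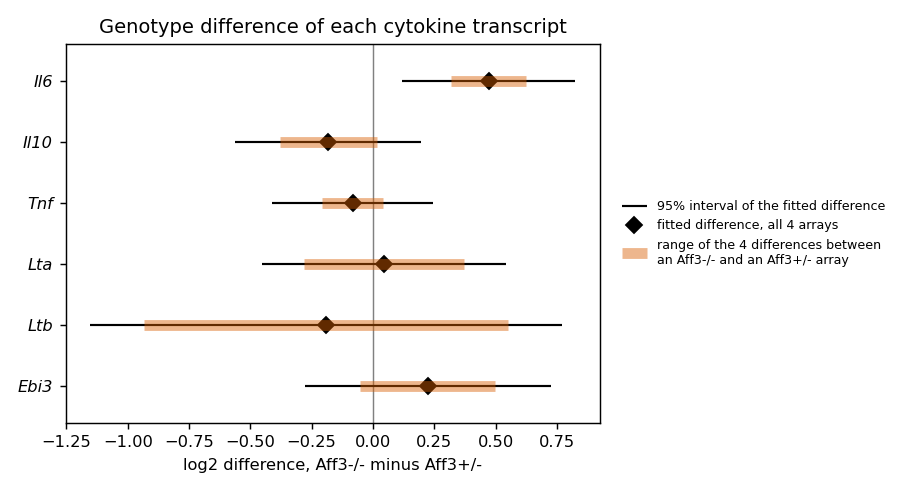
Log2 difference between Aff3-/- and Aff3+/- cells (horizontal axis) for each cytokine gene; diamonds are the limma estimates over all 4 arrays, black lines their 95% intervals, and orange bars span the 4 differences between an Aff3-/- and an Aff3+/- array. The Il6 interval of 0.12 to 0.83 lies to the right of 0 before adjustment, and the other 5 intervals hold 0.

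The chains that pair with EBI3 were measured on the same arrays. Il27, the IL-27 p28 gene, had log2 values of -2.52 and -2.47 in Aff3-/- cells and -2.70 and -2.49 in Aff3+/- cells (+0.10 ± 0.13, SE). Il12a, the IL-12 p35 gene, was at -3.19 and -4.29 in Aff3-/- cells and -2.70 and -3.33 in Aff3+/- cells (-0.72 ± 0.43, adjusted p = 1.00 in the limma fit), with overlap between the genotypes. Among the 4 tested partner chains and related ligands 3 were higher and 1 lower. Tnfsf14, the ligand LIGHT that shares the lymphotoxin beta receptor, stood at -6.60 and -6.43 in Aff3-/- cells and -7.73 and -6.93 in Aff3+/- cells. Since 1 of the 2 Aff3+/- arrays was below the detection limit, its difference is not exact, and it counts among the 3 higher genes only because the Aff3-/- arrays, where it is brighter, let it into the fit. Il23a was below the limit on all 4 arrays.

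Transcripts of receptors for these cytokines were also measured in these bulk samples. Of 10 receptor chains, 9 could be tested, 3 higher and 6 lower in Aff3-/- cells, with a median difference of -0.07. Il10ra, the ligand-binding chain for IL-10, was at 1.62 and 1.27 in Aff3-/- cells and 1.91 and 1.56 in Aff3+/- cells (-0.29 ± 0.20, SE), and its partner Il10rb was lower without overlap (-0.15 ± 0.12). For the IL-6 receptor, Il6ra was at -0.08 ± 0.46 and the shared signalling chain Il6st at -0.02 ± 0.12. Il6ra resembled Ltb in its spread, with 0.86 and -0.28 in Aff3-/- cells and 0.74 and -0.002 in Aff3+/- cells. The TNF receptor Tnfrsf1b was at +0.02 ± 0.11, and Tnfrsf1a was lower without overlap (-0.11 ± 0.11), though its other probe was at +0.46. The lymphotoxin beta receptor gene Ltbr, which lymphocytes largely lack, was well above background on 1 of the 4 arrays and was not tested. Of the 9, 0 were higher and 2 lower without overlap, against 8.44% and 11.1% of all features. None of the 9 passed the adjusted threshold, nor an unadjusted p of 0.05.

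Of 16 transcription factors that act on these genes, 15 were tested, 12 of them higher and 3 lower in Aff3-/- cells, with a median of +0.06. Over all tested features, 45.7% were higher and 54.3% lower. Nfil3, a basic leucine zipper factor, stood at 4.29 and 4.05 in Aff3-/- cells and 3.68 and 3.79 in Aff3+/- cells (+0.43 ± 0.14, SE), and the aryl hydrocarbon receptor gene Ahr at +0.31 ± 0.14 (its other probe at -0.07). Both were without overlap, as was the NF-kB subunit gene Nfkb2 (+0.23 ± 0.11), and 0 of the 15 passed the adjusted threshold. Over all features, 8.44% were higher without overlap. The 3 lower factors were Nfkbiz (-0.19 ± 0.15), Nfatc1 (-0.18 ± 0.18, its other probe at -0.33) and Bcl3 (-0.10 ± 0.15), each with overlap between the genotypes. Cebpb, whose product activates Il6, spread more within than between genotypes, at 1.53 and 0.13 in Aff3-/- cells and 0.84 and -0.07 in Aff3+/- cells. Maf, an activator of Il10, was below the limit on all 4 arrays.

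Genes that act after transcription were also set beside the members. The 10 regulators of cytokine mRNA stability all lay between -0.09 and +0.07, with a median of -0.02. Zfp36l1, an RNA-binding protein that triggers decay of AU-rich mRNAs, was at +0.07 ± 0.11 (SE), and Zc3h12a, the endonuclease Regnase-1 that cleaves Il6 mRNA, at -0.09 ± 0.15. The 4 tested genes for the release of TNF from the cell surface had a median of -0.04. The sheddase gene Adam17 was at -0.14 ± 0.12 (its other probe at -0.02) and the rhomboid-like Rhbdf1 at -0.06 ± 0.11. Both were lower without overlap, as were 11.1% of all features. Of 9 negative feedback genes 5 were higher and 4 lower (median +0.04). The cytokine signalling inhibitors Cish (+0.50 ± 0.35) and Socs1 (+0.17 ± 0.13) had the smallest p among them, and Socs3, a target of IL-6 and IL-10 signalling, was at -0.02 ± 0.24.

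**Figure D4:**
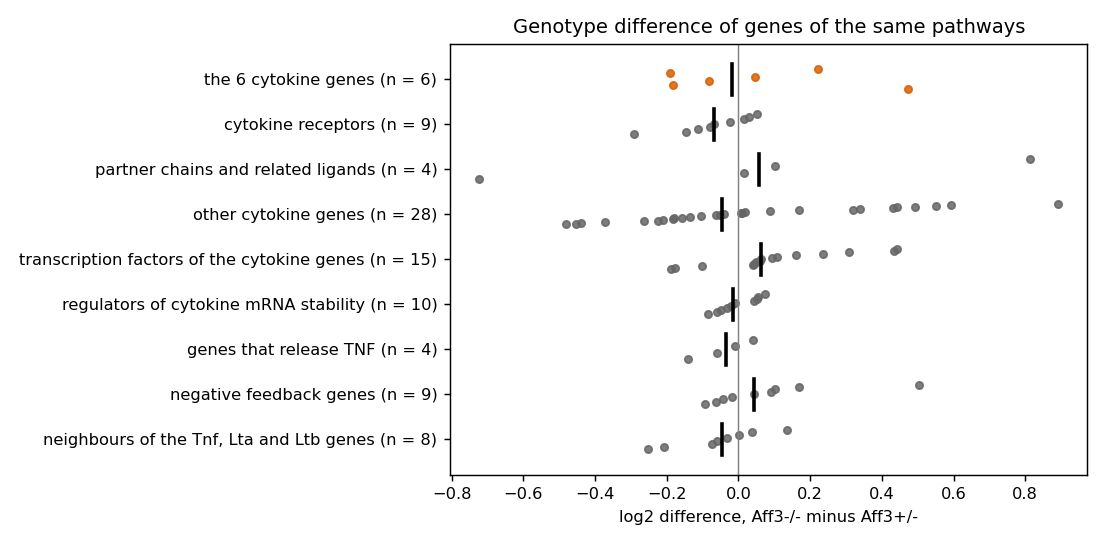
Log2 difference between Aff3-/- and Aff3+/- cells (horizontal axis) for the 6 cytokine genes (orange) and for the tested genes of 8 related lists (grey), 1 point per gene with the median as a black bar; n is the number of genes tested. The list medians lie between -0.07 and +0.06, and the regulators of mRNA stability are the most tightly grouped, between -0.09 and +0.07.

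Of 46 other cytokine genes listed, 28 were tested, 3 of them (Tgfb2, Tnfsf11 and Fasl) without detection on all 4 arrays. Tgfb2 and Tnfsf11, both higher in Aff3-/- cells, entered the fit through the Aff3-/- arrays alone. Fasl, lower in Aff3-/- cells, entered it through the Aff3+/- arrays alone. Their differences are not exact, and they count below only because the brighter genotype let them into the fit. Of the 28, 13 were higher and 15 lower in Aff3-/- cells, with a median of -0.05, and 13 of the 45 with a probe were below the limit on every array, among them Il2, Il4, Ifng and Il21. Csf2, the GM-CSF gene, was at -3.65 and -3.80 in Aff3-/- cells and -3.20 and -3.38 in Aff3+/- cells (-0.44 ± 0.13, SE, unadjusted p = 0.025 and adjusted p = 1.00 in the limma fit). Tnfsf4, which encodes the costimulatory OX40 ligand, stood at -4.00 and -4.27 in Aff3-/- cells and -4.71 and -4.42 in Aff3+/- cells (+0.43 ± 0.17). Neither overlapped between the genotypes. Of the 28, 4 (Tgfb2 among them) were higher and 2 lower without overlap, against 8.44% and 11.1% of all features. An unadjusted p under 0.05 in the limma fit was reached by 1 of the 28, Csf2, and by 2.04% of all features. Of 11 markers of IL-10-producing B cells and plasma cells, 4 were higher and 7 lower (median -0.06). Cd24a, a surface antigen of immature and regulatory B cells, was lower (-0.32 ± 0.12, unadjusted p = 0.049 and adjusted p = 1.00 in the limma fit). Jchain, the joining chain of secreted IgM, was at +0.33 ± 0.17.

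The genes whose levels followed each member most closely over the 4 arrays were listed by Pearson correlation, as a description over 4 points that share the same arrays. Candidates were named genes well above background on all arrays, with a range 0.5 to 2 times that of the member. For Il6 they were Dtwd1, Lonp1 and Micu3, and 87 of 5719 candidates reached r = 0.95. For Il10 they were Tssk4, Pik3r4 and Dck (142 of 8470), and for Tnf Gnb4, Aspdh and Gon4l (87 of 8256). Lta was followed by Zfp286, Sdcbp2 and Rapgef6 (661 of 8566) and Ltb by Dnaaf4, Nfatc2 and Fam168a (608 of 3134). For Ebi3 they were Pofut1, Glipr2 and Hp (190 of 7181). With 4 arrays so many genes come close to any member that the order among them carries little information.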

How the data were processed

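Total RNA of LPS- and IL-4-stimulated CD43-negative B cells from 2 Aff3-/- and 2 Aff3+/- samples was measured on 1-colour Agilent arrays. Groups and replicate numbers follow the labels. Per the labels' protocols, Cy3-labelled cRNA was made from 150 ng RNA. The deposited scanner files hold background-subtracted intensity values, read with Agilent Feature Extraction 10.7.1.1 per the file headers and not normalized between arrays. The authors' deposited value table holds log2 values centred per probe, with the scaling of each array and the choice of probes unknown. Its column medians were -0.04 and 0.02 for Aff3-/- replicates 1 and 2 and 0.13 and -0.03 for Aff3+/- replicates 1 and 2. It follows the scanner values (r = 1.00 after centring), lists Il10, Tnf and Ltb, and was used as an alternative.

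Spots flagged as outliers and control spots were left out. Processed signals were put on the log2 scale, each array's 75th percentile (1274 to 1351 units) was subtracted, and spots of a probe were averaged. Probes had to be detected in both samples of a genotype to be tested. Each gene was represented by its brightest probe, and 26581 of 39429 probes were named through RefSeq accessions (GRCm38.p6). Genotype differences (Aff3-/- minus Aff3+/-) come from limma 3.58.1, run in R 4.3.3 (lmFit, eBayes, two-sided, Benjamini-Hochberg over 20649 features, threshold 0.05, no block) and tested on simulated data. All 4 arrays lay on 1 slide, so no slide block was run. The number of arrays limits the precision.

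The members and gene lists were chosen with earlier results of these data known. From each list the text names the genes past the threshold or, with none, the 2 of smallest p. Marker lists add their defining genes, some of which are not reported here. Other list genes, such as Il6ra, Il27, Nfkb2, Cebpb, Socs3 and Nfkbil1, were chosen after their values were seen.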

Additional observations from a re-analysis of the deposited data

How the results depend on the processing

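No alternative changed the call for a member: its adjusted p stayed above 0.05 in each fit that held it (the lowest was 0.66, for Il6 with the replicate block), and the number of features called was 0 throughout. Il6 was higher in all 11 alternatives (+0.36 to +0.58), and Il10 (-0.30 to -0.07) and Tnf (-0.16 to -0.005) were lower in all 12. Leaving out single arrays, Lta ran from -0.135 without Aff3+/- replicate 2 to +0.225 without Aff3+/- replicate 1 and was -0.10 without Aff3-/- replicate 1. Ltb ran from -0.59 without Aff3-/- replicate 1 to +0.20 without Aff3-/- replicate 2 and was +0.16 without Aff3+/- replicate 1. Ebi3 ran from -0.0082 without Aff3-/- replicate 1 to +0.45 without Aff3-/- replicate 2. With 1 array left out, the replicate numbers are no longer balanced between the genotypes. In the fit with the replicate block, the shift from replicate 1 to replicate 2 was -0.74 for Ltb, -0.33 for Lta and -0.28 for Ebi3. Over all features, 0 passed the adjusted threshold for this shift. The cause of the changes with single arrays was not tested.

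Members without overlap numbered 2 with normexp (Il6 and Il10), 0 of the 3 in the deposited values, and 2 to 5 with 1 array left out, where a lone array meets that condition more easily. Over all features the share without overlap was 19.6% as reported, 21.7% with normexp, 18.3% in the deposited values and 45.5% to 73.1% with 1 array left out. The median changed sign with an array left out for 7 of the 13 lists, among them the receptors (-0.09 to +0.02) and the other cytokine genes (-0.04 to +0.04). Features with an unadjusted p under 0.05 numbered 811 without the filter, where more features were tested, 239 with eBayes trend, 1456 with the replicate number as a block, and 300 to 972 with 1 array left out. The labels do not say that the numbers pair the samples. Same-numbered arrays deviated from their genotype means together (r = 0.56 across 20635 features, which are not independent). With the replicate block the differences kept their values, and the SE was 0.08 for Ltb, 0.08 for Lta and 0.11 for Il6. Precision is limited by 2 arrays per genotype.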
